A study of Mus musculus with 11 samples.

Results

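The genes described here code for 10 integrin subunits: *Itgam*, *Itgax*, *Itgal* and *Itgad*, the alpha subunits that pair with beta2; *Itgb2*, the beta2 subunit itself; *Itga4* with its partners *Itgb7* and *Itgb1*; and *Itgav* with *Itgb5*. They are taken by name, by a rule that uses no measured value, but the list was chosen with earlier results of these data known. All 10 were found among the 27998 gene rows of the count tables. Each was read in all 11 libraries, as a level and as a share of cells.

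Integrins are surface receptors made of 1 alpha and 1 beta subunit, through which leukocytes hold on to other cells and to matrix. The beta2 integrins CD11a (*Itgal*), CD11b (*Itgam*), CD11c (*Itgax*) and CD11d (*Itgad*) are restricted to leukocytes, bind ligands such as ICAMs and complement C3 fragments, and are used to sort macrophages (macs) by flow cytometry. The alpha4 integrins bind VCAM-1, fibronectin and MAdCAM-1 and serve in the homing of leukocytes, while alphav with beta5 binds vitronectin and takes part in the uptake of apoptotic cells.

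The study removed the transcription factor ZEB2 from macs and sequenced single cells of 5 tissues by a droplet method that counts unique molecular identifiers (UMIs) at the 3′ end of transcripts. Microglia (brain), colonic macs (CMs), Kupffer cells (KCs, the resident macs of the liver), alveolar macs (AMs, lung) and splenic macs (SMs) were each given as 1 WT library from Zeb2fl/fl mice, which carry no CRE, and 1 Zeb2KO library from CRE+ Zeb2fl/fl mice. An 11th library held WT KCs from Nr1h3fl/fl mice, also without CRE. The mice were C57BL/6, aged 6 to 8 weeks where no other age is given, of both sexes, and the controls were littermates.

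By the sample labels CRE came from Fcgr1-cre in all 5 Zeb2KO libraries; by the published methods it came from Clec4f-cre in liver and Itgax-cre in lung. The Fcgr1-cre driver also acts in other immune cells, the Itgax-cre driver acts in CD11c-expressing cells, and in the study some macs of the CRE+ mice kept a *Zeb2* allele. KCs were sorted as Clec4F+CD64+F4/80+ cells, AMs as CD11c+SiglecF+CD64+F4/80+ cells, microglia as CD45int CD64+F4/80+ cells, and CMs and SMs as CD64+F4/80+ cells negative for Ly6C, Ly6G and SiglecF. CD11c, the *Itgax* product, was therefore a gate in the lung in both genotypes. No sort used CD11b. KCs and AMs were sequenced on another instrument than the other tissues, and both genotypes of a tissue on the same one.

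Levels are given as CPM, the UMIs of the gene scaled to a total of 1000000 UMIs over the used cells of a library, with exact Poisson 95% intervals, and ratios with conditional binomial 95% intervals. With 1 library per tissue and genotype these intervals cover counting error only, there is no replicate within a tissue, and no p-value is given for a single tissue. A gene is counted as past 2-fold when it had at least 20 CPM in the higher library and the ratio of its CPM, with 1 added to both, was 1 or more on the log2 scale in either direction. Shares of cells with a UMI were also computed after thinning each cell to 1000 UMIs, since deeper cells show more genes, and 257 WT SMs below that depth were left out there. A level over a library does not tell more cells with the transcript from more transcript per cell.

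After filtering, 2830 to 6993 cells per library were used (2995 WT and 2844 Zeb2KO SMs at the low end of depth, with medians of 2167 and 2677 UMIs per cell, and 4359 WT CMs at the high end with 9250). All 10 macrophage markers on the list used were detected in every library. Clusters of other cell types made up 27.7% of the WT and 19.6% of the Zeb2KO spleen cells, mostly B cells, and were left out. Libraries shared 14 to 76 cell barcodes per pair, at most 1.45% of the smaller one. *Zeb2* itself was higher in every Zeb2KO library (475 CPM in WT and 1747 in Zeb2KO microglia, for example). The 3′ end that is counted remains in the floxed allele, so these counts do not check the deletion.

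In microglia, 8 of the 10 integrin genes reached 20 CPM, and 3 of these were past 2-fold higher and 1 lower in Zeb2KO. Of the 5922 genes at that level, 4.27% were past 2-fold higher and 4.07% lower. In CMs 1 of 8 was higher and none lower, against 1.1% higher and 0.489% lower of 5113 genes. In KCs 2 of 9 were higher and none lower, against 3.47% and 1.28% of 5396 genes. In AMs 1 of 8 was higher and 2 were lower, against 4.35% and 7.31% of 5811 genes. In SMs 3 of 9 were higher and none lower, against 2.55% and 0.925% of 6159 genes. The median log2 ratio of the integrin genes at that level lay between 0.00 (CMs) and 0.13 (AMs), and that of all such genes between -0.31 (AMs) and 0.05 (CMs).

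**Figure D1:**
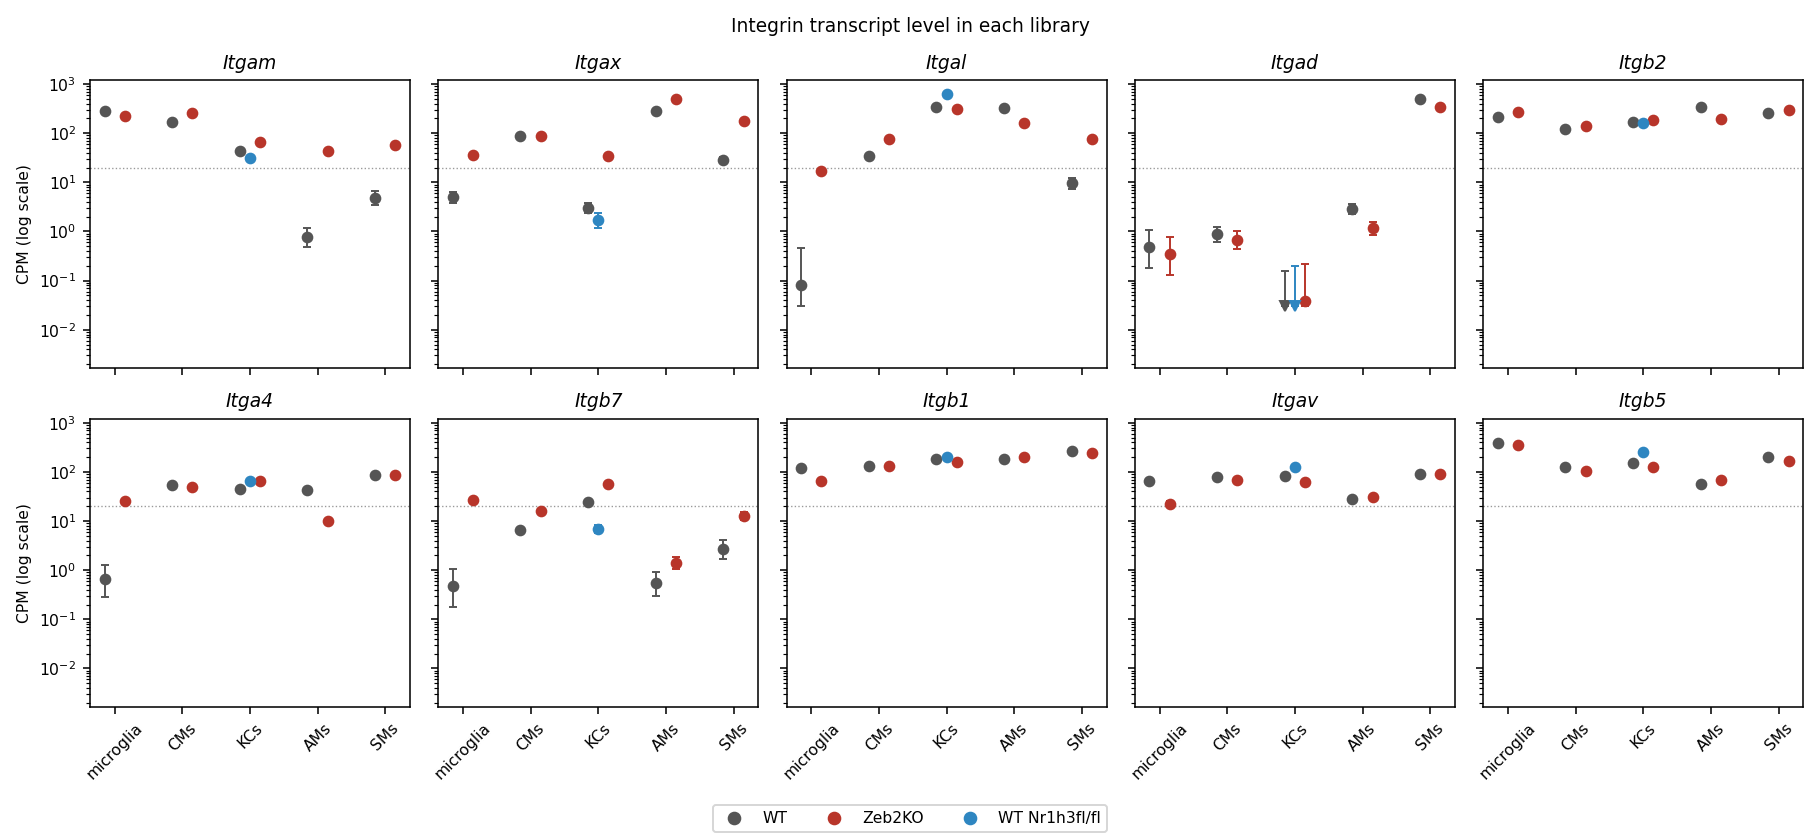
CPM on a log scale for each of the 10 integrin genes in each library, with exact Poisson 95% intervals, by tissue and genotype (WT grey, Zeb2KO red, WT Nr1h3fl/fl blue); triangles mark libraries with no UMI, with a bar up to the exact Poisson upper bound, the lower ends of intervals are cut at the height of the triangles, and the dotted line marks 20 CPM. *Itgam* sits at 0.763 in WT AMs and 43.6 in Zeb2KO AMs, while *Itgb2* and *Itgb1* stay in a narrow band across all libraries.

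**Figure D2:**
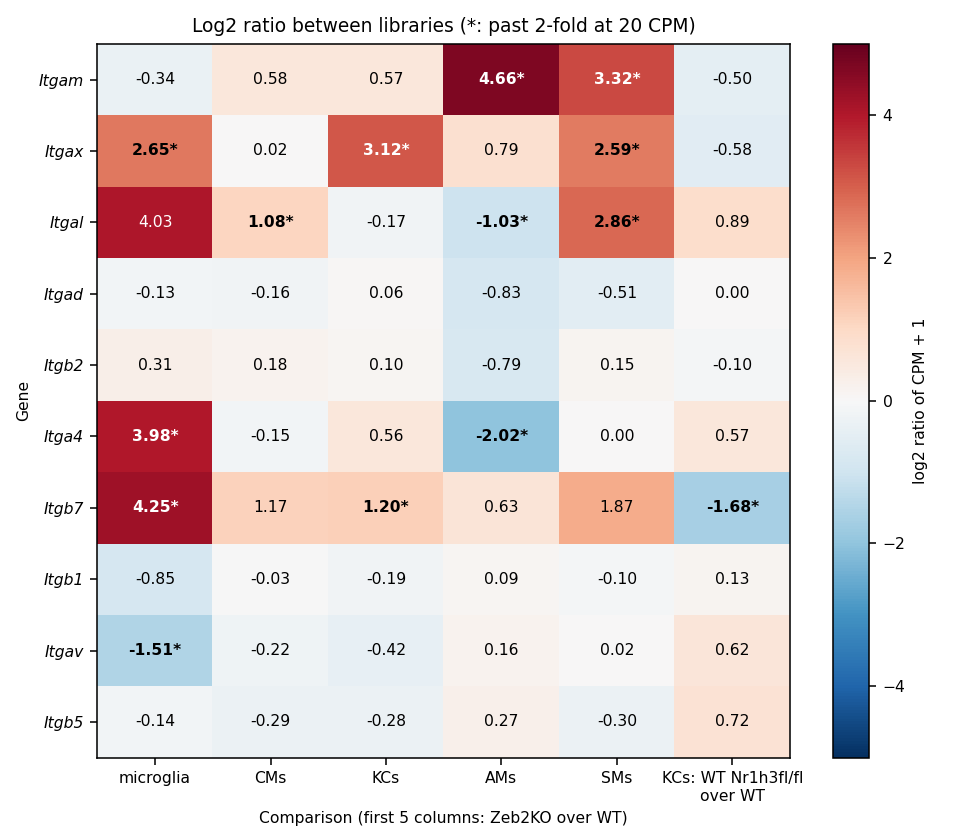
Log2 ratio of CPM plus 1 for each integrin gene (rows) in each comparison (columns); the first 5 columns are Zeb2KO over WT, the last is the WT Nr1h3fl/fl over the WT KC library, and stars mark genes past 2-fold at 20 CPM. *Itgax* is starred in microglia, KCs and SMs, *Itgam* in AMs and SMs, and *Itgal* is starred with opposite signs in SMs (2.86) and AMs (-1.03).

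*Itgam*, *Itgax* and *Itgad* lie side by side on chromosome 7, and *Itgal* lies upstream on the same strand (GENCODE annotation, build GRCm38). *Itgam* spans chr7:128062640-128118491, *Itgax* chr7:128129547-128150657 and *Itgad* chr7:128154376-128223816, with 11055 bases between the first pair and 3718 between the second. *Itgal* spans chr7:127296260-127335138, which leaves 727501 bases to *Itgam*. The other members lie elsewhere: *Itgb2* at chr10:77530252-77565708, *Itga4* at chr2:79255426-79333123, *Itgav* at chr2:83724397-83806916, *Itgb7* at chr15:102215995-102231944 on the minus strand, *Itgb1* at chr8:128685654-128733200 and *Itgb5* at chr16:33829665-33949338. Of the 19 other protein-coding genes within 200000 bases of the chromosome 7 members, 5 to 9 reached 20 CPM in a tissue and 1 was past 2-fold in any, *Cox6a2* in microglia, a gene that overlaps *Itgad* on the opposite strand.

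Promoter sequence (250 bases before to 50 after the gene start, RefSeq, GRCm38.p6) was at hand for 7 of the 10 genes, and 2 short motifs, neither of which contains the other, were looked for on both strands. CACCTG (reverse CAGGTG), the E-box form that ZEB proteins bind, was in 1 of the 7 promoters, *Itgb5*, and in 20.2% of 32851 promoters. GAGGAA (reverse TTCCTC), the core letters that the myeloid factor PU.1 binds, was in 4 of the 7 and in 28.3% of all. Windows of *Itgam*, the member with the largest ratio in AMs and SMs, and of *Itgb5* are shown here with the match in capitals. The *Itgam* windows lie at chr7:128062547-128062570 and chr7:128062616-128062639 and the *Itgb5* window at chr16:33829547-33829570, all on the plus strand. The matches in them begin 84, 15 and 109 bases before the gene start. *Itgam* had 1 further GAGGAA match, from base 33 of the gene, which is not shown.
Itgam at -84: tttctcccgGAGGAAggctacaga
Itgam at -15: catagctttTTCCTCatacttctc
Itgb5 at -109: tgtgacagcCACCTGggcaaccca
A match is a string of letters and not a bound site, and with 7 promoters these counts are a description.

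*Itgam*, which codes for CD11b, was carried by microglia and CMs in both genotypes and nearly absent from WT AMs and WT SMs. Its level was 282 (273 to 292) in WT and 222 (215 to 229) in Zeb2KO microglia, 172 and 259 in CMs, 44.2 and 65.9 in KCs, 0.763 (0.473 to 1.17) and 43.6 (41.5 to 45.7) in AMs, 4.90 (3.43 to 6.78) and 57.9 (53.0 to 63.1) in SMs, and 31.04 in the WT Nr1h3fl/fl KCs. Thus the Zeb2KO library was the higher in 4 tissues and the lower in microglia. The intervals of Zeb2KO KCs and Zeb2KO SMs, and those of WT KCs and Zeb2KO AMs, overlapped, and every other neighbour in the order was apart by counting error.

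The 2 large *Itgam* ratios were those of the tissues in which WT macs hardly carried it. In AMs it was 57.1-fold higher in Zeb2KO (37.2 to 92.5), from 21 UMIs in WT to 1629, and in SMs 11.8-fold higher (8.43 to 17.1), from 36 to 518. In CMs and KCs the ratios were 1.503 (1.46 to 1.55) and 1.49 (1.38 to 1.61), and in microglia the WT level was 1.27-fold higher. Per cell, 21 of 6993 WT AMs had an *Itgam* UMI, each with 1, against 1136 of 6276 Zeb2KO AMs. After thinning the shares were 0.0878% and 3.49% in AMs, 0.477% and 5.18% in SMs, 2.74% and 5.88% in KCs, 15.8% and 22.6% in CMs, and 24.5% and 20.2% in microglia.

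RNA outside cells gives UMIs in cells that do not use a gene, so *Itgam* was also read in the cell types left out. In the spleen, 0.199% of WT and 0.979% of Zeb2KO B cells had a UMI after thinning (medians of 2264 and 3182 UMIs per cell), below the 5.18% of Zeb2KO SMs. These B cells came from clusters 3 and 6, whose macrophage markers had a mean log2 fold against the other cells of -3.19 and -0.35. In cluster 6, RNA outside cells and cells joined to SMs cannot be told apart. In the liver, the endothelial cluster had 0.741% in WT and 3.44% in Zeb2KO, and B cells 0.255% and 2.46%, against 2.74% and 5.88% of KCs. These liver clusters also carried macrophage markers, with a mean log2 fold against the other cells of -0.48 in the endothelial cluster, -0.79 in B cells and -0.08 in the hepatocyte cluster, so RNA outside cells and cells joined to KCs cannot be told apart in them. In the colon, fibroblasts had 2.85% and 2.77%, against 15.8% and 22.6% of CMs. The part of such RNA or of joined cells in the 1.49-fold KC ratio was not tested. No other cell type of at least 50 cells was found in the microglia and AM libraries, so no such share can be given there.

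Within tissues, cells were clustered without any integrin gene, integrin ligand or activation gene. A cluster is called apart where its share of Zeb2KO cells was at least 9 times its share of WT cells. Such clusters held 99.5% of Zeb2KO microglia, 91.5% of Zeb2KO AMs, 80.6% of Zeb2KO SMs, 64.3% of Zeb2KO KCs and 19.1% of Zeb2KO CMs, and at most 1.17% of the WT cells of a tissue. With a coarser clustering (resolution 0.4 in place of 0.8) no CM cluster was apart. *Itgam* in SMs was 63.9 CPM inside them, 16.7 in the other Zeb2KO cells and 4.41 in WT cells outside. In AMs the same 3 values were 45.7, 20.8 and 0.698, and the Zeb2KO level was the higher in all 9 clusters that held at least 10 cells of each genotype. All WT AMs together had 21 *Itgam* UMIs, so the WT levels of single clusters rest on few UMIs and this count is a description. In CMs they were 284.5, 253 and 172.5, with the Zeb2KO level higher in 10 of 11 clusters.

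In SMs most *Itgam* UMIs came from 1 cluster. Cluster 4, with 701 Zeb2KO cells and led by *S100a8*, *S100a9*, *Camp*, *Ngp*, *Lcn2* and *Il1f9*, had 172 *Itgam* CPM and held 81.3% of the *Itgam* UMIs of the Zeb2KO library, while the largest Zeb2KO cluster, cluster 0 with 1590 cells, had 14.5. The next genes by fold in cluster 4 were *Skint3*, *Dpep2*, *Cd209b* and *Mmp14*, and its macrophage markers lay above the other cells (mean log2 fold 0.32). The neutrophil genes that lead cluster 4 were concentrated in few cells: 4 of 2844 Zeb2KO SMs had over 1% of their UMIs from neutrophil genes (*S100a8*, *S100a9*, *Camp*, *Ngp*, *Ltf* and *Retnlg*), and those 4 cells held 91.3% of all such UMIs and 2 of the 518 *Itgam* UMIs. All 9 genes of a wider neutrophil list were detected in both SM libraries, with a summed level of 444 CPM in WT and 317 in Zeb2KO. Without such cells the log2 ratio of *Itgam* was 3.383, against 3.32 with them (this leaving out was chosen after seeing the data). A dendritic list of 7 genes was at 37.4 CPM in WT and 113 in Zeb2KO SMs, with all 7 detected. The part of these cells in the result was not tested.

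In AMs *Itgam* was spread over more cells. Cluster 1, with 3716 Zeb2KO cells led by *Auts2*, *Ceacam10*, *Cd177* and *Krt8*, held 69.6% of its UMIs at 44.8 CPM, and cluster 7, with 224 Zeb2KO and 19 WT cells led by *C1qa*, *C1qb* and *C1qc*, held 23.0% at 211 CPM. Without cluster 7, a choice made after seeing the data, the log2 ratio was 4.42, against 4.66. The 9-gene neutrophil list was higher in the Zeb2KO AMs too, at 59.4 in WT and 23853 CPM in Zeb2KO (*S100a8* alone 14172), with 6 of 9 genes detected in WT and 7 in Zeb2KO and *Camp* and *Ngp* at 0 in both. A monocyte list of 6 genes was at 12.8 and 81.7, with all 6 detected. An eosinophil list of 5 genes was at 9.20 and 43.4, nearly all of it *Ear6* (9.088 and 43.3), with 3 detected and *Prg2* and *Epx* at 0 in both. Their part in the *Itgam* result was not tested.

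In KCs *Itgam* was shared between a small cluster of both genotypes and the Zeb2KO cells. Cluster 12, led by *Alox15* and *Prg4*, had 719 CPM in 65 WT cells and 600 in 42 Zeb2KO cells, and held 58.9% of the *Itgam* UMIs of WT and 19.9% of those of Zeb2KO KCs. Cluster 2, which held 1938 Zeb2KO and no WT cells and was led by *Siglecf*, *Il1r2*, *Ddit4* and *Cd34*, had 81.3. With clusters 11 and 12 left out, again a choice made after seeing the data, the *Itgam* log2 ratio in KCs was 1.47 and passed 2-fold, against 0.57 with them.

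**Figure D3:**
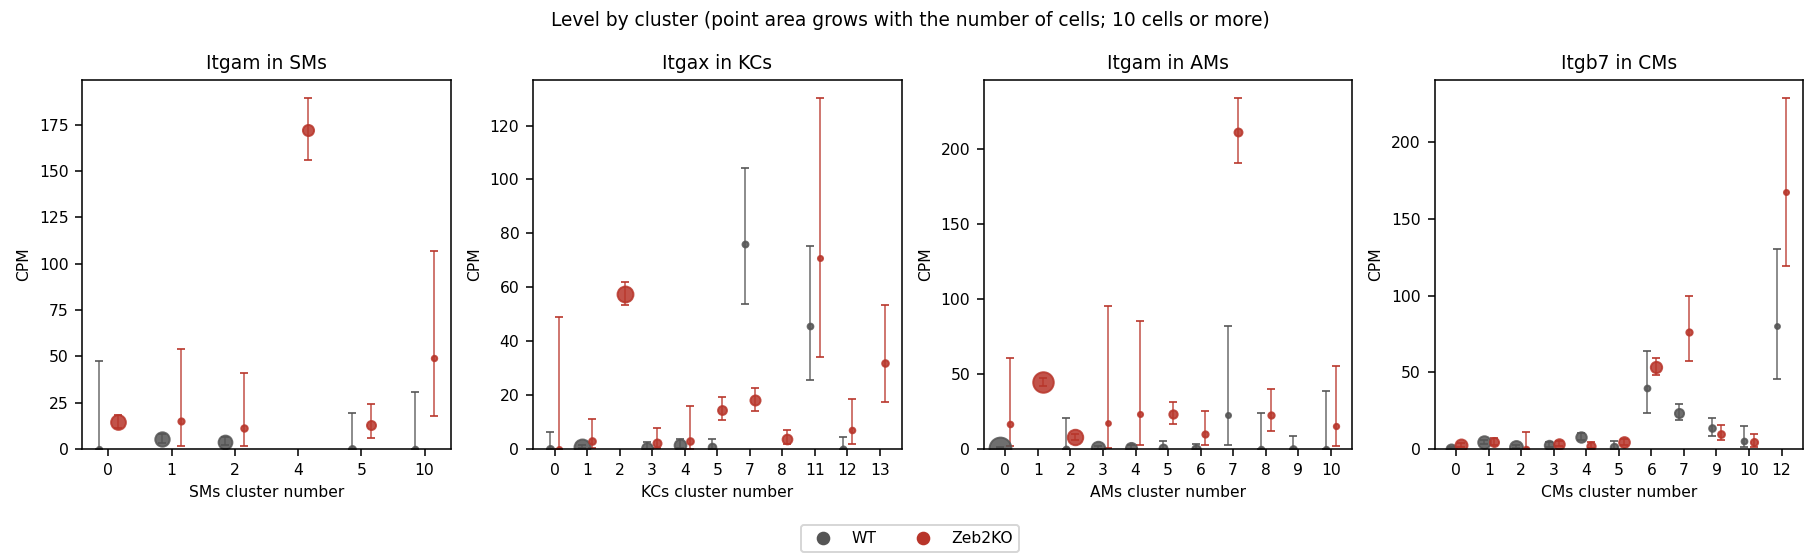
CPM by cluster for 4 gene and tissue pairs, WT grey and Zeb2KO red, with exact Poisson 95% intervals; point area grows with the number of cells and clusters of at least 10 cells are shown. *Itgam* in SMs peaks in cluster 4 (172) and in AMs in cluster 7 (211), *Itgax* in Zeb2KO KCs peaks among the large clusters in cluster 2 (57.7), and *Itgb7* in CMs is high in clusters 6, 7 and 12.

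*Itgax*, which codes for CD11c, was highest in AMs, and its level was higher in the Zeb2KO library of every tissue but CMs, where both libraries overlapped and the sign of the log2 ratio turned with TMM scaling (0.02 and -0.01). Its level was 5.03 (3.85 to 6.44) in WT and 36.8 (34.0 to 39.8) in Zeb2KO microglia, 87.1 and 88.2 in CMs, 3.05 (2.38 to 3.84) and 34.3 (32.0 to 36.6) in KCs, 289 and 500 in AMs, 29.0 and 179 in SMs, and 1.71 (1.16 to 2.42) in the WT Nr1h3fl/fl KCs. Among neighbours in the order, the intervals of Zeb2KO microglia and Zeb2KO KCs overlapped, as did those of Zeb2KO KCs and WT SMs and those of both WT KC libraries.

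The ratio of *Itgax* passed 2-fold in 3 tissues. It was 7.32 (5.63 to 9.67) in microglia, 11.3 (8.84 to 14.5) in KCs and 6.18 (5.36 to 7.17) in SMs, but 1.73 (1.69 to 1.78) in AMs and 1.01 (0.966 to 1.06) in CMs. Thinned shares of cells followed the levels, with 0.435% and 2.98% in microglia, 0.219% and 3.15% in KCs, 2.75% and 14.98% in SMs, 24.7% and 39.7% in AMs, and 6.89% and 7.11% in CMs. In AMs, where both libraries were gated on CD11c, the UMIs per cell with any were 1.80 in WT and 3.35 in Zeb2KO. These 2 values were not thinned, and the median depths were 3586 UMIs per cell in WT and 5672 in Zeb2KO AMs. The part of depth in them was not tested. The part of a possible Itgax-cre transgene in the lung *Itgax* level was not tested.

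In the cell types left out, the shares of Zeb2KO cells with *Itgax* were below those of the Zeb2KO macs. In the liver, where these clusters also carried macrophage markers, the thinned share was 1.58% in the Zeb2KO endothelial cluster and 1.07% in Zeb2KO B cells, against 3.15% of KCs, and in WT KCs 0 of 142 B cells had a UMI, which allows a share of up to 2.11%. In the spleen it was 2.62% in Zeb2KO B cells and 9.03% in the 103 Zeb2KO cells of the erythroid cluster, against 14.98% of SMs, while in WT the erythroid cluster (2.70%) was level with SMs (2.75%). The spleen erythroid cluster and B cell cluster 6 also carried macrophage markers, with a mean log2 fold against the other cells of -0.56 and -0.35. The last 1000 bases of the *Itgax* and *Itgad* transcripts share 126 of 970 stretches of 31 bases, so how reads were split between this pair is uncertain; no other pair of members shared any.

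By cluster, *Itgax* was spread over Zeb2KO microglia, with 44.8 CPM in cluster 1 (1463 cells), 28.8 in cluster 3 (1042 cells) and 31.2 in cluster 4 (531 cells). In KCs cluster 2 had 57.7 and held 80.9% of the Zeb2KO *Itgax* UMIs, while inside and outside the clusters apart the levels were 47.7 and 14.0, against 3.05 in WT. The dendritic list was at 25.9 in WT and 53.2 in Zeb2KO KCs, with all 7 genes detected. The eosinophil list was at 24.9 in WT and 239.6 in Zeb2KO KCs, nearly all of it *Ccr3* (24.7 and 239.4), with 4 and 3 genes detected and the granule gene *Epx* at 0 in both. The neutrophil list was at 33.7 and 55.5, most of it *Csf3r* (30.25 and 50.69), with *Camp* and *Ngp* at 0 in both. The monocyte list was lower in Zeb2KO KCs, at 599.7 in WT and 488.6 in Zeb2KO, most of it *Plac8* (582.4 and 420.6), with all 6 genes detected. The part of these in the *Itgam* and *Itgax* levels of KCs was not tested. The few WT KC *Itgax* UMIs lay in small clusters, 52.8% in 57 cells of cluster 7 led by *Mmp12* and *Retnla* and 20.8% in 48 cells of cluster 11, and in cluster 7 the WT level (76.0) was above the Zeb2KO level (18.0). In SMs cluster 4 had 387 and held 59.0%, and cluster 0 had 101, still above the 29.4 of WT clusters 1 and 2. In CMs the level was 148 inside the cluster apart, 73.9 in the other Zeb2KO cells and 86.9 in WT, and with a limit of 4 times in place of 9 the log2 ratio inside over WT was -0.01 in place of a positive value.

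**Figure D4:**
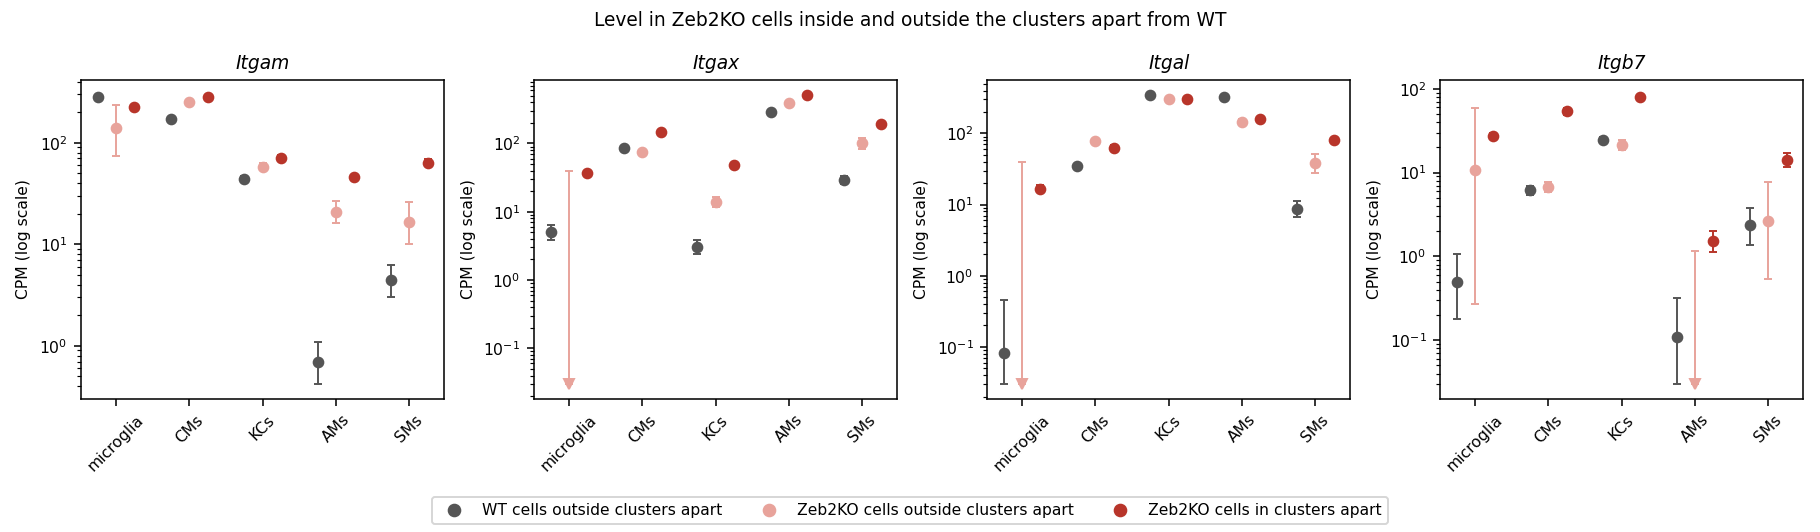
CPM on a log scale for *Itgam*, *Itgax*, *Itgal* and *Itgb7* in WT cells outside the clusters apart (grey), Zeb2KO cells outside them (light red) and Zeb2KO cells inside them (red), by tissue, with exact Poisson 95% intervals and triangles where no UMI was seen; lower ends of intervals are cut at the height of the triangles. *Itgb7* in CMs and KCs is high inside (53.8 and 80.2) and near WT outside (6.69 and 21.5), whereas *Itgal* in CMs is higher in both Zeb2KO groups than in WT.

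Cells with both transcripts were few in WT KCs, AMs and SMs. Among Zeb2KO SMs of at least 1000 UMIs, 224 of the 372 cells with an *Itgam* UMI also had *Itgax* (60.2%), and 973 of 2844 cells had *Itgax*; in WT SMs 4 cells had both. Among Zeb2KO KCs 206 of 1018 *Itgam* cells had both (20.2%), against 4 of 446 in WT. In Zeb2KO AMs 1062 of 1136 *Itgam* cells had *Itgax* (93.5%), where 5578 of 6276 cells had it. Deeper cells show more of both genes, so these counts are given as a description.

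*Itgal*, which codes for the alpha subunit of LFA-1 (CD11a), differed in opposite directions between tissues. Its level was 0.0811 (1 UMI) in WT and 16.7 (14.8 to 18.7) in Zeb2KO microglia, 35.1 and 75.5 in CMs, 342 and 304 in KCs, 325 and 159 in AMs, 9.52 (7.42 to 12.03) and 75.3 (69.8 to 81.2) in SMs, and 634 in the WT Nr1h3fl/fl KCs. Zeb2KO CMs and Zeb2KO SMs overlapped in their intervals and all other neighbours in the order were apart. The Zeb2KO library was 2.15-fold higher in CMs (2.02 to 2.29) and 7.91-fold higher in SMs (6.18 to 10.3). In AMs WT was 2.04-fold higher (1.98 to 2.11), in KCs 1.12-fold, and in microglia the ratio of 282 UMIs to 1 was 205.5 (36.6 to 8145), below 20 CPM.

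The call in AMs rests on the scaling. With TMM factors, which centre the bulk of the genes, the ratios in AMs moved up by at most 0.22 on the log2 scale, and by less in genes of low level because of the added 1 (*Itgam* from 4.66 to 4.81, for example). *Itgal* was then at -0.81 and no longer past 2-fold, *Itgax* was at 1.01 and past it, and of all genes past 2-fold in AMs 343 were higher and 225 lower in place of 253 and 425. In the other tissues the log2 shift of the factor was at most 0.073 in size, and no other integrin call changed.

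Over clusters, the *Itgal* difference in CMs was seen in most. Of 11 clusters with at least 10 cells of each genotype, Zeb2KO was higher in 10, with 95.6 against 41.5 CPM in cluster 0 and 107 against 49.9 in cluster 1, and the exception was cluster 6, the cluster apart (62.2 and 63.4). The log2 ratio of *Itgal* inside over WT was 0.82 in CMs, and 0.34 with a limit of 4 times in place of 9. Some marker lists of other cells were higher in the Zeb2KO CMs and others lower. The neutrophil list was at 25.1 in WT and 68.2 in Zeb2KO, with 6 and 7 of 9 genes detected and *Camp* and *Ngp* at 0 in both. The monocyte list was at 161 and 212, with all 6 detected, and its top gene was *Ccr2* in WT (99) and *Plac8* in Zeb2KO (129.3). A plasma cell list was at 428 and 763, with all 4 measured genes detected (*Jchain* 394 and 724). Among the lists lower in Zeb2KO were those of B cells (44.78 and 11.95), T cells (6.595 and 4.01) and fibroblasts (208.5 and 147). Their part in the *Itgal* and *Itgam* levels of CMs was not tested. In AMs *Itgal* was lower in 8 of 9 clusters. In SMs cluster 4 had 206 and held 74.5% of the *Itgal* UMIs, and cluster 0 had 23.9, against 9.70 in WT cluster 1. B and T cells use this gene, and the left-out spleen B cells had it in 6.08% (WT) and 5.96% (Zeb2KO) of thinned cells, against 0.981% of WT and 7.01% of Zeb2KO SMs. In the liver the endothelial cluster had it in 26.7% of WT and 19.96% of Zeb2KO thinned cells, near the 30.6% and 27.3% of KCs, and the hepatocyte cluster of the WT Nr1h3fl/fl library in 50.2%, near the 48.7% of its KCs. The part of RNA outside cells or of joined cells in these shares was not tested.

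*Itgad*, which codes for CD11d, was high in the spleen libraries alone. Its level was 486 (470 to 502) in WT and 341 (329 to 354) in Zeb2KO SMs, and in the other 9 libraries it was at most 2.87 (WT AMs). Both WT KC libraries had no UMI, which by a limit of 3 counts allows up to 0.127 and 0.165 CPM (the exact Poisson upper bounds drawn in the plot of levels are 0.156 and 0.203), and neighbours in the order below Zeb2KO AMs were not apart by counting error. WT SMs were 1.42-fold above Zeb2KO SMs (1.36 to 1.496), and 38.7% and 28.1% of thinned cells had a UMI. The spleen cell types left out had it too, in 29.8% of WT and 20.4% of Zeb2KO thinned cells of the erythroid cluster (310 and 206 CPM) and in 11.9% and 10.3% of B cells (160 and 115 CPM), so WT was the higher there as well. RNA outside cells and cells joined to SMs cannot be told apart in these clusters, and their part in the *Itgad* difference was not tested. Within the Zeb2KO library cluster 0 had 457 *Itgad* CPM, near the 521 and 456 of WT clusters 1 and 2, and cluster 4 had 68.0. Cluster 4 was thus low for *Itgad* and high for *Itgam*, *Itgax* and *Itgal*.

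*Itgb2*, the beta subunit shared by the 4 alpha subunits above, was carried by every library. It was 218 in WT and 271 in Zeb2KO microglia, 121 and 137 in CMs, 170 and 181 in KCs, 337 and 194 in AMs, 263 and 293 in SMs, and 158 in WT Nr1h3fl/fl KCs. No ratio passed 2-fold. The Zeb2KO library was the higher in 4 tissues by 1.07 to 1.24-fold, and in AMs WT was 1.73-fold higher (1.68 to 1.78), while *Itgam* there was 57.1-fold higher in Zeb2KO. With TMM factors the AM ratio was still below 2-fold.

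**Figure D5:**
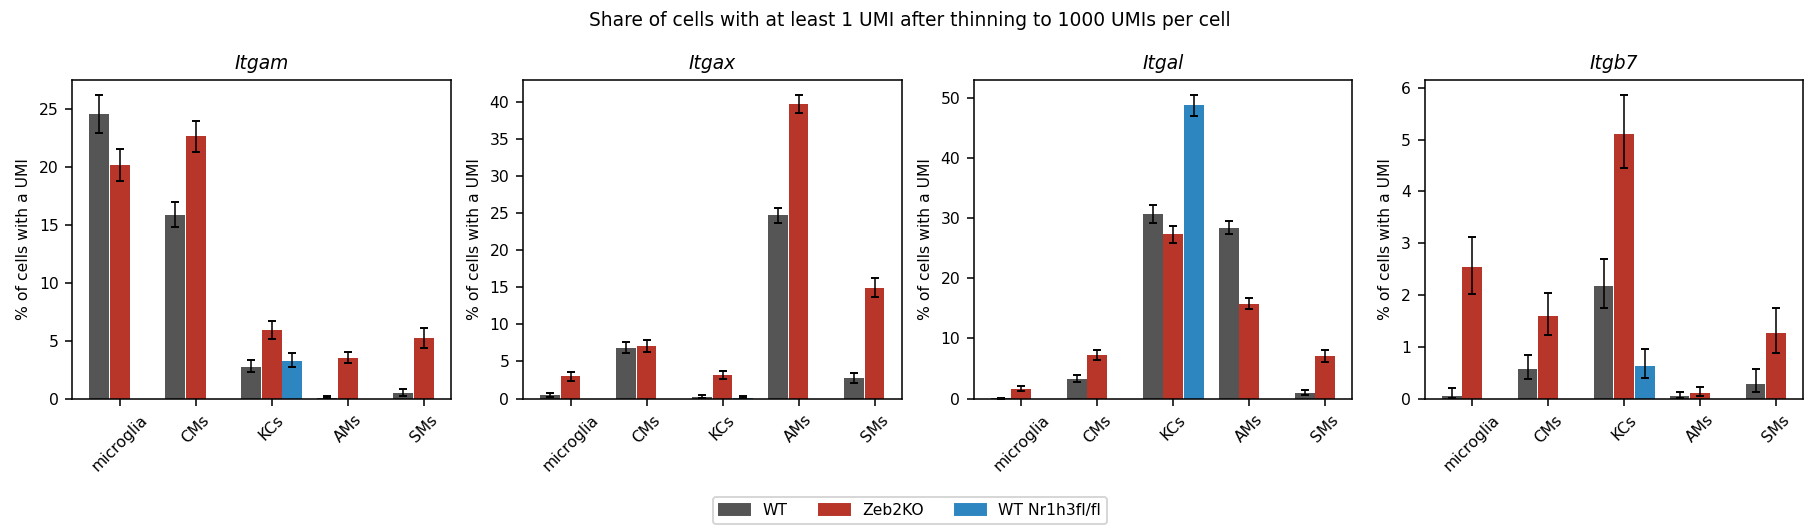
Percent of cells with at least 1 UMI of *Itgam*, *Itgax*, *Itgal* and *Itgb7* after thinning each cell to 1000 UMIs, by tissue and genotype, with exact binomial 95% intervals for the cells counted. In AMs *Itgam* goes from 0.0878% to 3.49% and *Itgal* from 28.4% to 15.8%, and the WT Nr1h3fl/fl KCs stand above both other KC libraries for *Itgal* (48.7%).

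*Itga4*, the alpha4 subunit of VLA-4 and of the gut-homing receptor, was nearly absent from WT microglia only. Its level was 0.649 (8 UMIs) in WT and 25.1 (22.8 to 27.6) in Zeb2KO microglia, 54.8 and 49.3 in CMs, 44.4 and 66.0 in KCs, 43.5 and 10.0 in AMs, 85.6 and 85.8 in SMs, and 66.5 in WT Nr1h3fl/fl KCs. In microglia the Zeb2KO library was 38.7-fold higher (19.5 to 90.3), in AMs WT was 4.35-fold higher (3.87 to 4.89), and in SMs the ratio was 1.003 (0.902 to 1.12). Zeb2KO was higher in KCs (1.49-fold, 1.38 to 1.61), while against the other WT KC library its ratio was 0.993 (0.922 to 1.07). By cluster *Itga4* was spread over Zeb2KO microglia (20.4, 35.3 and 19.3 in clusters 1, 3 and 4), and in AMs it was lower in 8 of 9 clusters and equal in the other, with 6.16 in cluster 1 against 46.4 in WT cluster 0.

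*Itgb7*, the alternative beta partner of alpha4, had the higher level in the Zeb2KO library of every tissue. It was 0.486 (6 UMIs) in WT and 27.2 (24.8 to 29.8) in Zeb2KO microglia, 6.46 and 15.7 in CMs, 24.2 and 56.8 in KCs, 0.545 (15 UMIs) and 1.39 (52 UMIs) in AMs, 2.72 (20 UMIs) and 12.6 in SMs, and 6.88 in WT Nr1h3fl/fl KCs. The ratio was 56.0 in microglia (25.5 to 153) and 2.35 in KCs (2.13 to 2.59), both past 2-fold. In CMs it was 2.44 (2.11 to 2.82), in AMs 2.55 (1.41 to 4.88) and in SMs 4.64 (2.87 to 7.89), with fewer than 20 CPM in either library. In WT microglia the transcripts of both alpha4 and beta7 were thus nearly absent, and both were present in Zeb2KO microglia. In microglia the monocyte list was at 6.41 in WT, with 3 of 6 genes detected, and 38.7 in Zeb2KO, with all 6 (*Plac8* 35.98), and the dendritic list at 2.43 and 13.2, with 4 and 5 of 7. The neutrophil list was at 197 and 459, most of it *Csf3r* (195.5 and 361.5), with 6 and 3 of 9 detected and *Camp* and *Ngp* at 0 in both. Their part in the *Itgax*, *Itga4* and *Itgb7* levels was not tested.

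The *Itgb7* difference in CMs and KCs lay in single clusters. In KCs cluster 2 had 94.3 CPM and held 79.9% of the Zeb2KO *Itgb7* UMIs, while in 7 of the 8 clusters with cells of both genotypes Zeb2KO was the lower. In CMs cluster 6, with 743 Zeb2KO cells led by *Hp*, *Mmp8*, *Ms4a1* and *Ltb*, had 53.8 and held 65.7%, and the other Zeb2KO cells were at 6.69 against 6.12 in WT (log2 ratio inside over WT 2.94, and 2.205 with a limit of 4 times in place of 9 for a cluster apart); clusters 7 and 12 were also high, the latter led by the plasma cell gene *Mzb1*, and without both the CM log2 ratio was 1.43 against 1.17 (chosen after seeing the data). In AMs 12 of 15 WT and 47 of 52 Zeb2KO UMIs were in cluster 7, and without it the log2 ratio was 0.04 against 0.63. In Zeb2KO microglia it was spread, with 27.0, 22.5 and 35.2 in clusters 1, 3 and 4. Liver B cells left out had it in 6.05% of WT and 8.06% of Zeb2KO thinned cells, above the 2.18% and 5.11% of KCs.

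*Itgb1*, the common beta1 subunit, had no ratio past 2-fold. It was 120 in WT and 66.0 in Zeb2KO microglia, where WT was 1.81-fold higher (1.68 to 1.96), 133 and 130 in CMs, 181 and 159 in KCs, 185 and 198 in AMs, 262 and 244 in SMs, and 198 in WT Nr1h3fl/fl KCs. Both CM and both SM libraries overlapped in their intervals. In CMs the cells of the cluster apart had 75.6, below the 133 of WT and the 143 of the other Zeb2KO cells. That log2 ratio of -0.80 inside over WT was -0.17 with a limit of 4 times in place of 9, so the difference rests on which clusters are counted as apart.

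*Itgav*, the alphav subunit, was lower in Zeb2KO microglia. It was 66.3 in WT and 22.7 in Zeb2KO microglia, 79.1 and 67.6 in CMs, 83.4 and 62.2 in KCs, 27.5 and 30.9 in AMs, 89.9 and 91.4 in SMs, and 128 in WT Nr1h3fl/fl KCs. In microglia WT was 2.92-fold higher (2.59 to 3.31), and clusters 1, 3 and 4 of Zeb2KO had 25.2, 21.2 and 17.9. In KCs WT was 1.34-fold higher (1.25 to 1.43). The Zeb2KO cells of the clusters apart had 54.4 and the other Zeb2KO cells 74.0 (68.8 to 79.4). WT cells outside the clusters apart had 83.4 (79.7 to 87.15). Within 7 of 8 shared clusters the Zeb2KO level was the higher, so the count of clusters and the pooled level of these cells differed in direction. Both AM and both SM libraries overlapped.

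*Itgb5*, which pairs with alphav, was highest in microglia and close in both genotypes of each tissue. It was 392.0 in WT and 356 in Zeb2KO microglia, 126 and 103 in CMs, 151 and 125 in KCs, 56.7 and 68.5 in AMs, 206 and 167 in SMs, and 250 in WT Nr1h3fl/fl KCs. WT was 1.10 to 1.23-fold higher in 4 tissues, and in AMs Zeb2KO was 1.21-fold higher (1.13 to 1.29). In microglia, where WT *Itgav* was 2.92-fold higher, WT *Itgb5* was 1.10-fold higher (1.06 to 1.14).

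The 2 WT KC libraries, from Zeb2fl/fl and Nr1h3fl/fl mice, show how far 2 CRE− libraries of a tissue lay apart. Their cells lay in different clusters: cluster 0 held 71.7% of the Nr1h3fl/fl and 3.10% of the Zeb2fl/fl WT cells, cluster 1 held 2.91% and 45.4%, and cluster 12, which had 58.9% of the *Itgam* UMIs of the Zeb2fl/fl WT library, held no Nr1h3fl/fl cell. Their part in the values that follow was not tested. Of 8 integrin genes at 20 CPM, 1 was past 2-fold lower in Nr1h3fl/fl and none higher, against 0.829% lower and 0.504% higher of 5551 genes. It was *Itgb7*, 3.51-fold higher in the Zeb2fl/fl WT library (2.89 to 4.30), which exceeds its 2.35-fold Zeb2KO ratio. *Itgal* was 1.86-fold higher in the Nr1h3fl/fl library (1.80 to 1.91), *Itgb5* 1.65-fold and *Itgav* 1.54-fold. Set against the Nr1h3fl/fl library, Zeb2KO KCs were past 2-fold higher for *Itgam* (2.12), *Itgax* (20.1) and *Itgb7* (8.25), and lower for *Itgal* (2.09-fold) and *Itgav* (2.06-fold), 3 higher and 2 lower of 9 genes at 20 CPM, against 4.27% higher and 4.05% lower of 5755 genes. *Itgax* was thus past 2-fold against both WT libraries by more than they differed (1.79-fold). The genotype, litter and library of these WT KCs cannot be told apart.

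Whether a gene differed in the same direction over the tissues was asked with edgeR's quasi-likelihood F test, which took the tissues as the only replicates, each with a WT and a Zeb2KO library. None of the 10 integrin genes had an adjusted p under 0.05, and 0% of the 12113 genes tested did, with 1468 genes and 3 members at an unadjusted edgeR p under 0.05. *Itgax* had a log2 fold change of 1.998 (SE 0.55, edgeR's adjusted p = 0.276) and was higher in 5 of 5 tissues by total UMIs and in 4 of 5 with the TMM factors that the fit uses. *Itgb7* had 2.10 (SE 0.62, edgeR's adjusted p = 0.296), also higher in 5 of 5, and *Itgad* -0.58 (SE 0.20, edgeR's adjusted p = 0.357), with 4 of its 5 tissues below 3 CPM. *Itgam* had 1.69 with a wide error (SE 0.98, edgeR's adjusted p = 0.521), and *Itgal* 1.33 (SE 0.94, edgeR's adjusted p = 0.577). Without lung the *Itgam* value was 0.90, and the *Itgal* value was 0.67 without brain and 0.87 without spleen. With DESeq2, which called 2.74% of 13497 genes, *Itgax* (DESeq2's adjusted p = 0.00177) and *Itgb7* (DESeq2's adjusted p = 0.0122) passed. With 5 pairs an exact sign permutation cannot go below p = 0.0625.

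The 17 other integrin genes were low in these macs: 1 to 3 of them reached 20 CPM in a tissue, and 0 were past 2-fold in any. *Itga9* was carried by SMs (239 and 248), KCs (124 and 94.3) and CMs (50.24 and 49.98), and *Itga6* (68.6 and 52.9) and *Itgb3* (75.9 and 46.9) by microglia. These 3 were chosen after their values were seen.

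Of 21 genes that activate integrins or link them to the cytoskeleton, 15 to 17 reached 20 CPM in a tissue. In CMs 1 of 16 was past 2-fold lower in Zeb2KO, against 0.489% of all genes at that level. In KCs 1 of 17 was higher, against 3.47%, and in AMs 1 of 15 was lower, against 7.31%. In microglia and SMs none was past 2-fold. *Rasgrp2*, an exchange factor for RAP1, was 2.84-fold higher in WT CMs (24.7 and 8.70). *Parvg*, an actin-linking parvin, was 2.17-fold higher in Zeb2KO KCs (20.77 and 44.97). *Rassf5*, the RAP1 effector RAPL that acts on LFA-1, was 2.53-fold higher in WT AMs (283 and 112), where *Itgal* was lower in Zeb2KO as well.

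Of 19 integrin ligands, 5 to 8 reached 20 CPM in a tissue. In microglia 2 of 7 were past 2-fold higher and 2 lower in Zeb2KO, against 4.27% and 4.07% of all genes at that level. In CMs 2 of 7 were higher, against 1.1%, and in KCs 1 of 8, against 3.47%. In AMs 2 of 8 were higher and 1 lower, against 4.35% and 7.31%. In microglia *Spp1*, coding for osteopontin, was 44.6-fold higher in Zeb2KO (37.7 to 53.2), from 11.2 to 499, and *C3*, the complement component that the CD11b and CD11c integrins bind once cleaved, was at 0.162 and 42.9. *Jam3* was at 22.5 and 0.709, and *Mfge8*, a bridge between apoptotic cells and alphav integrins, was the 4th ligand past 2-fold there, lower in Zeb2KO. In CMs *Spp1* was 3.52-fold and *C3* 3.01-fold higher in Zeb2KO, in KCs *F11r*, a ligand of LFA-1, was 2.42-fold higher, and in SMs none was past 2-fold. In AMs *Mfge8* was 11.3-fold and *C3* 4.96-fold higher in Zeb2KO, and *Fn1*, coding for the alpha4 ligand fibronectin, was 3.52-fold higher in WT (318 and 90.2), as was *Itga4*. No gene of the 3 lists that entered the edgeR fit over tissues had an adjusted p under 0.05. With DESeq2 1 did, *Pxn*, coding for the adaptor paxillin of the activation list (log2 fold change 0.38, SE 0.073, edgeR's adjusted p = 0.199, DESeq2's adjusted p = 0.0029), named after its values were seen.

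Over the 11 libraries, the genes whose log2 levels ran most like those of *Itgam*, of 8025 compared, were *Rassf2* (r = 0.93), *Sdf2l1* (r = 0.92) and *Polb* (r = 0.92), and those most like *Itgax* were *Bcl2a1d* (r = 0.95), *Map4k1* (r = 0.94) and *Uck2* (r = 0.93). Libraries of the same tissue share their tissue in these values. The genes named were picked for the highest r, so pairs of integrin genes cannot be set against them. Between pairs of the integrin genes r ran from -0.70 (*Itgax* and *Itgb5*) to 0.61 (*Itgal* and *Itga4*), and *Itgam* and *Itgax* had r = -0.21.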

How the data were processed

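Single-cell 3′ RNA-seq was read in 11 libraries of sorted macs. The deposited values are UMI counts per gene and barcode, which the authors made with Cell Ranger and STAR on mm10, and which still hold the cells that were left out later in the study. Here cells beyond 3 median absolute deviations in UMIs, genes or mitochondrial share were removed, cells were clustered with scanpy 1.11.5 and leidenalg 0.10.2 (2000 variable genes, 30 components, 15 neighbours, resolution 0.8) without the integrin, ligand and activation genes, and clusters of other cell types, by marker lists, were left out. Total UMIs per library were 11133411 to 47400786. Scrublet marked at most 0.0566% of cells and so did not work; no doublets were removed, and removing the 5% highest scores was an alternative.

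Counts were summed per library. Levels, ratios (pseudocount 1, at least 20 CPM) and shares were described with exact intervals that cover counting error only, since UMIs of a library are not replicates. The labels do not say how many mice a library holds. The common difference was fitted with edgeR 4.0.16 (quasi-likelihood F test, TMM, filterByExpr, tissue as a block, Benjamini-Hochberg over all genes), with DESeq2 1.42.0 as an alternative, in R 4.3.3. The SE beside edgeR's values was derived here from its log2 fold change and F statistic. Scripts ran on Python 3.11.15 and were tested on simulated data. All 10 members are named in every library; of the lists of other integrin, activation and ligand genes, those past 2-fold are named, at most 3 per list and tissue by size of ratio. For *Itgam* and *Itgax* the 3 genes of nearest pattern are named. Members, lists and rules were chosen with earlier results of these data known. Alternatives changed the cells kept, resolution, doublets, scaling, pseudocount, level minimum, the limit for a cluster apart, thinning depth, tissue block and tissues; leaving out single clusters or cells was added after seeing the data. The monocyte marker result of SMs is not reported here.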

Additional observations from a re-analysis of the deposited data

Results flagged for a closer look

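*Itgal* differed in direction between tissues: its log2 ratio of Zeb2KO over WT was 1.08 in CMs and 2.86 in SMs, but -1.03 in AMs. *Itga4* did so too, at 3.98 in microglia and -2.02 in AMs. Each ratio compares 1 library with 1 library, and the difference between tissues was not tested. In AMs the *Itgal* value was -0.81 with TMM scaling.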

How the results depend on the processing

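The alternatives gave 500 log2 ratios to set against the main ones, and those with another CPM minimum keep their value and sign by construction. Of the 500, 485 kept their call, 8 were called past 2-fold in addition and 7 no longer were. The sign turned in 5, none past 2-fold: *Itgax* in CMs with TMM scaling (-0.01), *Itga4* in KCs with the Nr1h3fl/fl library as WT (-0.01), and *Itga4* in SMs with no cluster removed (-0.13), with all barcodes (-0.12) and with the highest doublet scores removed (-0.002), against 0.005. The number of members past 2-fold went to 1 in microglia, 1 in KCs and 1 in AMs with a minimum of 50 CPM, by construction of the higher minimum, and to 2 in CMs, 5 in microglia and 4 in SMs with a minimum of 5. With the Nr1h3fl/fl library as WT it was 5 in KCs; the cause was not tested. For the difference common to the tissues, DESeq2 called 2 members where edgeR called 0; the cause was not tested. Leaving out each tissue in turn gave 0 members in every case, as did the fit with no tissue block. Over the tissues left out the log2 fold change common to the tissues was 0.90 (without lung) to 2.33 for *Itgam*, 1.63 to 2.51 for *Itgax*, 0.67 (without brain) to 1.89 for *Itgal*, -0.63 to -0.42 for *Itgad*, 1.49 to 2.47 for *Itgb7*, and -0.35 (without brain) to 0.84 (without lung) for *Itga4*; that of *Itgb2* was -0.045 (without brain) to 0.19 (without lung). Its sign turned also for *Itgb2* scaled by total UMIs (-0.0045, against 0.046) and for *Itgal* with no tissue block (-0.12, against 1.33); no such value passed the test. At resolution 0.4 no CM cluster was apart, so no such level could be given for CMs. Of 100 thinned shares 77 moved beyond their interval with another depth, and such shares rise with depth by construction. No paired analysis was possible because within a tissue each genotype has 1 library; the tissue block is the only pairing. No library could be left out within a tissue. Depth limits genes of few UMIs, such as *Itgb7* in AMs.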

Other observations

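*Itga6*, which codes for the alpha6 integrin subunit and was chosen after its values were seen, was at 16.5 CPM (389 UMIs) in WT and 13.2 in Zeb2KO KCs, but had 1 UMI in the WT Nr1h3fl/fl KCs. The ratio of both WT KC libraries was 299 (53.4 to 11842), at levels below 20 CPM. KC cluster 12, led by *Alox15* and *Prg4*, held 1.502% of the WT and 0.945% of the Zeb2KO cells and none of the Nr1h3fl/fl cells. In the same libraries *Fn1* was at 246 CPM in WT and 1.60 in Nr1h3fl/fl KCs, and *Thbs1* at 28.98 and 0.110. The part of these cells in the *Itga6* difference was not tested.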
